A study of Mus musculus with 12 samples.

Results

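Iron enters a blood cell, is stored or built into heme, and leaves again through a small set of proteins, and 10 genes that encode them were followed here in mouse bone marrow. The genes were Tfrc, Steap3, Slc11a2 and Slc25a37 for uptake, Fth1 and Ftl1 for storage, Hmox1 and Slc11a1 for heme breakdown and recycling, and Slc40a1 and Cp for export. They were chosen by symbol from the 12199 genes of the deposited table, and all 10 were present and passed the filter on low counts. The choice was made with earlier results of these data known. Cp was put on the list because it is among the most raised genes of the mutants, so its difference from WT is described without a test and it is left out of the counts of calls against WT.

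RNA was sequenced from the BM cells of C57BL/6 mice of 4 genotypes, with 3 WT, 3 DF, 3 TF and 2 TFD libraries in the table, 11 in all. WT mice carried none of the mutant alleles. DF mice were Dnmt3aFlox/+ with MxCre and Flt3 ITD/+, TF mice were Tet2+/– with Flt3ITD/+, and TFD mice carried Tet2+/–, Flt3ITD/+ and Dnmt3aFlox/+ with MxCre. The Dnmt3a enzyme places methyl groups on DNA and Tet2 oxidizes them, and the ITD allele duplicates part of the receptor tyrosine kinase Flt3. Poly(I:C) was given to the animals of all 4 genotypes, including WT, and switches on the interferon-responsive Mx promoter that drives Cre, in blood cells and in other tissues. WT animals came from a core facility and are not stated to be littermates of the mutants. TFD replicate 3 was not analysed here.

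Total counts ranged from 8274153 to 15900904 per library. The labels name the source as whole bone marrow mononuclear cells, yet neutrophil genes made up the most abundant of the marker lists, with summed levels from 23100 to 82300 CPM (counts scaled to the library total with TMM factors) per library. Libraries with at least 10000 Xist counts were WT replicate 3, TF replicate 3 and TFD replicate 2. Ddx3y, which lies on the Y chromosome, had 3, 12 and 4 reads in them, in the same order. Every other library held between 1040 and 2132 Ddx3y reads. DF was the only genotype without a library of high Xist. Comparisons with DF are therefore not balanced for sex as read from Xist and Ddx3y. Tet2 ranged from 148 to 169 CPM in WT, from 196 to 246 CPM in DF, from 136 to 205 CPM in TF and from 163 to 209 CPM in TFD. Dnmt3a ranged from 30.9 to 57.8 CPM in WT, from 38.0 to 46.4 CPM in DF, from 57.7 to 86.2 CPM in TF and from 54.4 to 58.6 CPM in TFD. Neither gene lay below all WT libraries in a genotype that lost an allele of it, although Dnmt3a was lower in each DF library than in each TF library, where both its alleles are intact. In bulk RNA, fewer cells of a type and less RNA per cell cannot be told apart.

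Most iron in marrow is taken up by erythroid precursors, which bind transferrin through the receptor Tfrc, reduce the iron in the endosome with Steap3, move it to the cytosol with Slc11a2 and into the mitochondrion with Slc25a37 for heme synthesis. Ferritin, built from Fth1 and Ftl1 chains, stores what is not used. Macrophages recover iron from old red cells by opening heme with Hmox1 and return it to plasma through Slc40a1 (ferroportin), where ferroxidases such as Cp help load it on transferrin.

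Several of these mRNAs carry an iron-responsive element, a short RNA hairpin bound by the iron regulatory proteins Aco1 and Ireb2 when iron is low. In a 5′ UTR the bound hairpin blocks translation, and in the 3′ UTR of Tfrc it protects the mRNA from decay. The hairpins are shown because they are the shared feature by which uptake, storage and export genes are coupled to iron, and because the levels reported below are of mRNA, and the 5′ type acts on translation. They were searched on the mRNA strand of GENCODE vM21 transcripts (mm10) as an unpaired cytosine, an arm of 5 bases, a loop of CAGTGN with any last base but guanine, and an arm that pairs with the first over all 5 bases, wobble pairs allowed. Capitals mark the loop, with 29 bases given for each hairpin.
Tfrc hairpin 1: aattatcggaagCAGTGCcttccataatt
Tfrc hairpin 2: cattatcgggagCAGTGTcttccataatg
Tfrc hairpin 3: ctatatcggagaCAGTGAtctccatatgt
Tfrc hairpin 4: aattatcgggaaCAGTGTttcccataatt
Fth1 hairpin: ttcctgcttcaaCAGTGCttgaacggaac
Ftl1 hairpin: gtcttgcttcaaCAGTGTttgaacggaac
Slc40a1 hairpin: caacttcagctaCAGTGTtagctaagttt

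The 4 matches of Tfrc lay in its 3′ UTR on the plus strand, at chr16:32631219-32631247, chr16:32631598-32631626, chr16:32631663-32631691 and chr16:32631710-32631738. The others lay in 5′ UTRs, that of Fth1 at chr19:9982732-9982760 on the plus strand, that of Ftl1 at chr7:45459779-45459807 on the minus strand and that of Slc40a1 at chr1:45925465-45925493 on the minus strand. Among the genes tested, 16 of 11211 with a 5′ UTR held such a match there (0.143%), against 3 of the 10 iron genes. In 3′ UTRs the share was 64 of 11231 genes (0.57%), against 1 of the 10. These matches describe the sequence alone, and a gene without one may hold a hairpin of another shape.

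In each mutant genotype the members other than Cp were either lower than in WT or not called. DF had 7 of 9 lower, against 16.6% of all genes tested that were called lower in DF. TF had 6 of 9 lower, against 15.6% of all genes, and TFD had 6 of 9 lower, against 11.6%. None of the 9 was called higher, where 21.0% of all genes were called higher in DF, 19.0% in TF and 14.7% in TFD. Every DF library lay below every WT library for 7 of the 9 (22.5% of all genes), as did every TF library for 5 (22.9%) and every TFD library for 7 (23.5%). The 9 had a median log2 fold change of −1.10, −0.84 and −0.98 in the same order, whereas the median over all genes was 0.06, 0.02 and 0.01. Calls were made with edgeR's quasi-likelihood F test at a Benjamini-Hochberg adjusted p under 0.05 over all 12175 genes tested. Tfrc, Slc11a2, Slc25a37, Fth1, Hmox1 and Slc40a1 were lower in all 3 mutant genotypes, 6 of the 9 members, against 7.9% of all genes. The comparisons share the WT libraries, so the 3 genotypes are not separate tests of one another. The members were chosen with earlier results of these data known, so these counts describe them and are no independent support.

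**Figure D1:**
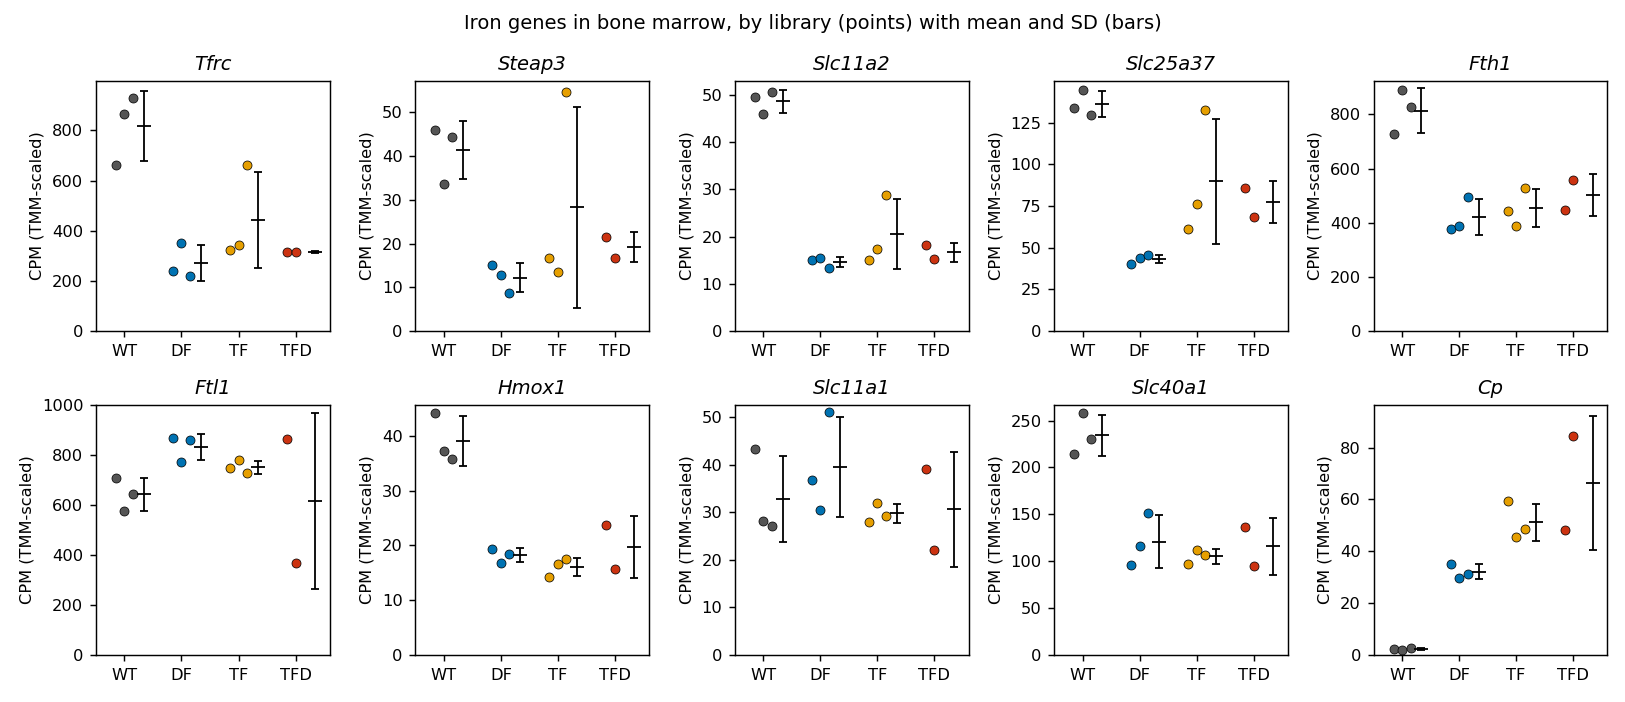
Level of each iron gene in each library, as CPM with TMM factors (y axis, from 0), by genotype (x axis), with points for libraries and bars for the mean and SD. Cp was between 1.73 and 2.60 CPM in WT and between 29.5 and 84.5 CPM in the mutants, while Tfrc, Slc11a2 and Slc25a37 were called lower in each mutant genotype. TF replicate 3 had the highest level of each uptake gene among the mutant libraries, and for Steap3 it lay above WT.

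Tfrc, on chromosome 16 (mm10, 32608896 to 32632794), encodes the transferrin receptor and fell in every mutant genotype. It stood at 662, 866 and 929 CPM in the 3 WT libraries. In DF it was 239.6, 352 and 220.2 CPM, in TF 325, 342 and 661 CPM, and in TFD 317 and 314 CPM. No mutant library reached the lowest WT library, although TF replicate 3, at 661.4 CPM, came within 1 CPM of WT replicate 1 at 661.6 CPM. The level was 3.02-fold lower in DF, with a log2 fold change of −1.60 ± 0.26 (SE) and an edgeR adjusted p of 0.000531. It was 1.85-fold lower in TF (−0.89 ± 0.26, adjusted p = 0.0182), and TFD had a 2.59-fold lower level (−1.38 ± 0.30, adjusted p = 0.00488). The TF call was lost when TF replicate 1, TF replicate 2, WT replicate 2 or WT replicate 3 was left out, with adjusted p up to 0.078.

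Steap3 (chromosome 1, 120226416 to 120271082), the endosomal ferrireductase, fell in DF, and its TF and TFD differences were not called. WT libraries had 45.9, 33.7 and 44.3 CPM and DF libraries 15.1, 12.9 and 8.61 CPM. In TF the values were 16.6, 13.5 and 54.6 CPM, and in TFD 21.6 and 16.8 CPM. TF replicate 3 lay above all WT libraries, whereas the other TF and both TFD libraries lay below them. The log2 fold change in DF was −1.75 ± 0.42 with an adjusted p of 0.00623. It was −0.56 ± 0.40 in TF, with an adjusted p of 0.30, and −1.11 ± 0.47 in TFD, with an adjusted p of 0.0992. Without TF replicate 3 the TF change was −1.46 and was called, and the TFD change was called as well. Without the 3 libraries of high Xist both were also called, at −1.41 (adjusted p = 0.000714) and −0.89 (adjusted p = 0.0429).

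Slc11a2 (chromosome 15, 100387900 to 100423055) encodes the divalent metal transporter that takes endosomal iron to the cytosol, and it fell in every mutant genotype. It was at 49.4, 45.9 and 50.5 CPM in WT, 15.2, 15.4 and 13.5 CPM in DF, 15.1, 17.4 and 28.9 CPM in TF, and 18.1 and 15.2 CPM in TFD. All mutant libraries lay well below the WT range. The fold decreases of DF, TF and TFD were 3.30, 2.38 and 2.91 (log2 −1.72 ± 0.20, −1.25 ± 0.19 and −1.54 ± 0.23), with edgeR adjusted p-values of 4.71e-05, 0.000454 and 0.000396. These calls held in every alternative tried.

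Slc25a37 (chromosome 14, 69241851 to 69285103), the mitochondrial importer mitoferrin, fell in each genotype. WT libraries had 134, 145 and 129.5 CPM, and DF libraries had 40.6, 43.8 and 45.4 CPM. TF libraries had 61, 76.2 and 132 CPM, and TFD libraries 86.1 and 68.7 CPM. The DF and TFD libraries lay below WT, while TF replicate 3 fell within the WT range. The log2 fold changes of DF, TF and TFD were −1.65 ± 0.22, −0.60 ± 0.22 and −0.81 ± 0.25, with edgeR adjusted p-values of 0.000133, 0.0468 and 0.0277. The TF call was lost in 9 of the alternatives, with adjusted p up to 0.168, and the TFD call when TFD replicate 1, TFD replicate 2 or WT replicate 2 was left out, with adjusted p up to 0.161.

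Of the storage genes, Fth1 was called lower in each mutant genotype and Ftl1 in none with all libraries, and the difference between them was not tested. Fth1 (chromosome 19, 9980600 to 9985111), the ferritin heavy chain that oxidizes iron for storage, fell in every mutant genotype. Its WT libraries had 726, 888 and 827 CPM, against 375, 388 and 496 CPM in DF, 445, 389 and 528 CPM in TF, and 447 and 556 CPM in TFD. The mutant libraries did not overlap the WT libraries. The log2 fold changes of DF, TF and TFD were −0.96 ± 0.16, −0.84 ± 0.16 and −0.70 ± 0.18, with edgeR adjusted p-values of 0.000501, 0.00141 and 0.0109. Without TFD replicate 1 the TFD call was lost (adjusted p = 0.0972).

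Ftl1 (chromosome 7, 45457944 to 45459886), the ferritin light chain that nucleates the iron core, was not called in any genotype. Its levels were 707, 576.5 and 646 CPM in WT, 868, 771 and 859 CPM in DF, 747, 779.8 and 726 CPM in TF, and 864 and 367 CPM in TFD. DF and TF libraries all lay above the WT libraries, and the 2 TFD libraries lay on either side of them. The log2 differences of DF, TF and TFD were 0.37 ± 0.23, 0.22 ± 0.23 and −0.06 ± 0.25, with adjusted p-values of 0.212, 0.466 and 0.884. In TFD the difference was −0.81 (adjusted p = 0.00597) without replicate 1 and 0.43 without replicate 2, so that 1 library decided its sign. The DF difference was called when either TFD library was left out, with adjusted p down to 0.0193. Both ferritin genes have near-identical processed copies in the genome and only uniquely aligned reads were counted, so their levels are uncertain to the extent that reads were shared.

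The ratio of Fth1 to Ftl1 counts within a library put the pair side by side. It was 1.03, 1.54 and 1.28 in WT, 0.433, 0.503 and 0.577 in DF, and 0.595, 0.499 and 0.727 in TF. All DF and TF libraries lay below the WT libraries. In TFD it was 0.517 in replicate 1 and 1.51 in replicate 2, the latter within the WT range.

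**Figure D2:**
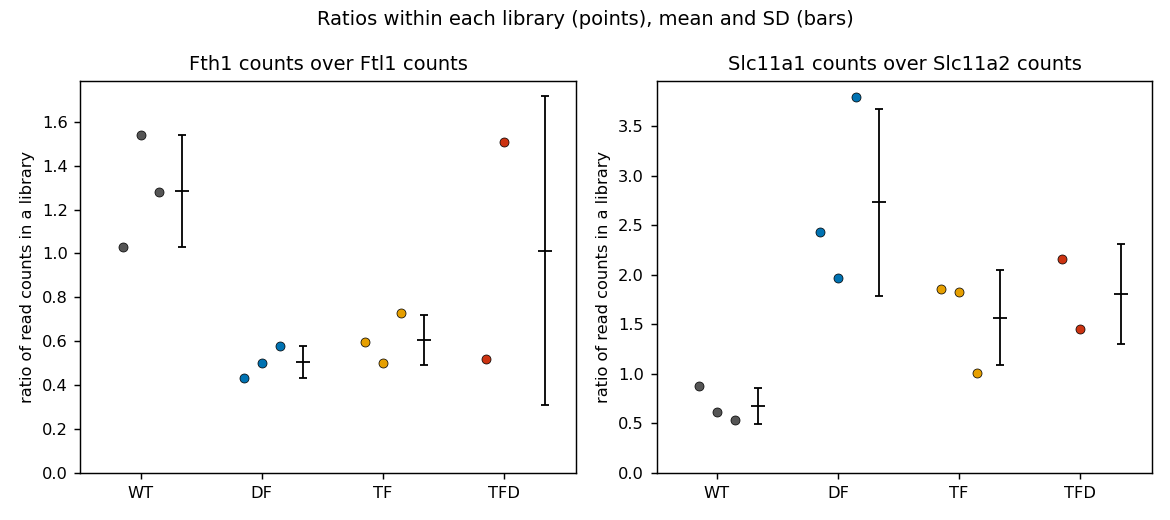
Ratio of Fth1 to Ftl1 read counts (left) and of Slc11a1 to Slc11a2 read counts (right) in each library, by genotype, with points for libraries and bars for the mean and SD. The ferritin ratio was 1.28 ± 0.26 in WT and 0.50 ± 0.07 in DF, and the transporter ratio was 0.68 ± 0.18 in WT and 2.73 ± 0.94 in DF (SD, n = 3 libraries each).

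Hmox1 (chromosome 8, 75093618 to 75100593), which opens the heme ring and releases its iron, fell in every mutant genotype. WT libraries had 44.2, 37.3 and 35.7 CPM. The mutant libraries had 19.3, 16.9 and 18.5 CPM in DF, 14.2, 16.6 and 17.4 CPM in TF, and 23.6 and 15.7 CPM in TFD. Every mutant library lay below WT, and TF replicate 3 did not stand apart from the other TF libraries here as it did for the uptake genes. The fold decreases of DF, TF and TFD were 2.15, 2.43 and 1.98 (log2 −1.10 ± 0.16, −1.28 ± 0.16 and −0.98 ± 0.18), with edgeR adjusted p-values of 0.0002, 9.28e-05 and 0.00157.

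Slc11a1 (chromosome 1, 74375203 to 74386051), the phagosomal metal transporter of macrophages and neutrophils, was not called in any genotype. It ranged from 27.0 to 43.3 CPM in WT, from 30.4 to 51.0 CPM in DF, from 28.0 to 31.9 CPM in TF and from 22.1 to 39.1 CPM in TFD, and the groups overlapped. The log2 differences of DF, TF and TFD from WT were 0.25 ± 0.24, −0.15 ± 0.24 and −0.10 ± 0.27, with adjusted p-values of 0.423, 0.659 and 0.821. Its ratio to the related transporter Slc11a2 was 0.875, 0.615 and 0.535 in the WT libraries and between 1.01 and 3.79 in the mutant libraries, which did not overlap WT.

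Slc40a1 (chromosome 1, 45908070 to 45925594), the known cellular iron exporter of mammals, fell in each of the 3 genotypes. WT libraries had 214, 258 and 229.9 CPM. DF libraries had 95.8, 116 and 151 CPM, TF libraries 96.7, 112 and 107 CPM, and TFD libraries 137 and 94.6 CPM. All mutant libraries lay below all WT libraries. By edgeR the log2 fold changes of DF, TF and TFD were −0.96 ± 0.17, −1.16 ± 0.17 and −1.02 ± 0.19, with adjusted p-values of 0.00088, 0.000314 and 0.00216. The 3 calls held in every alternative tried. The ratio of Tfrc to Slc40a1 counts, entry over exit, ranged from 3.09 to 4.04 in WT, from 1.46 to 3.04 in DF, from 3.06 to 6.20 in TF and from 2.32 to 3.32 in TFD.

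Cp (chromosome 3, 19957054 to 20009750) encodes ceruloplasmin, a copper ferroxidase made mainly by the liver and also by some myeloid cells. It rested on 27, 14 and 29 counts in the WT libraries, or 2.22, 1.73 and 2.60 CPM. It was at 35.2, 29.5 and 31.3 CPM in DF, 59.3, 45.5 and 48.7 CPM in TF, and 48.2 and 84.5 CPM in TFD. The level was 14.4-fold that of WT in DF, 23.0-fold in TF and 29.7-fold in TFD (log2 3.85, 4.52 and 4.89), given as a description because these values chose the gene. Per length of transcript Cp was at 5.11 ± 0.47 CPM per kb of transcript in DF and 8.17 ± 1.15 in TF, against 0.35 ± 0.07 in WT (SD, n = 3), the lowest member in WT. In DF its mean differed from that of Steap3 by less than their summed SDs. None of 7 hepatocyte genes listed as markers, such as Alb and Ttr, was in the table of genes past the deposited filter.

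**Figure D3:**
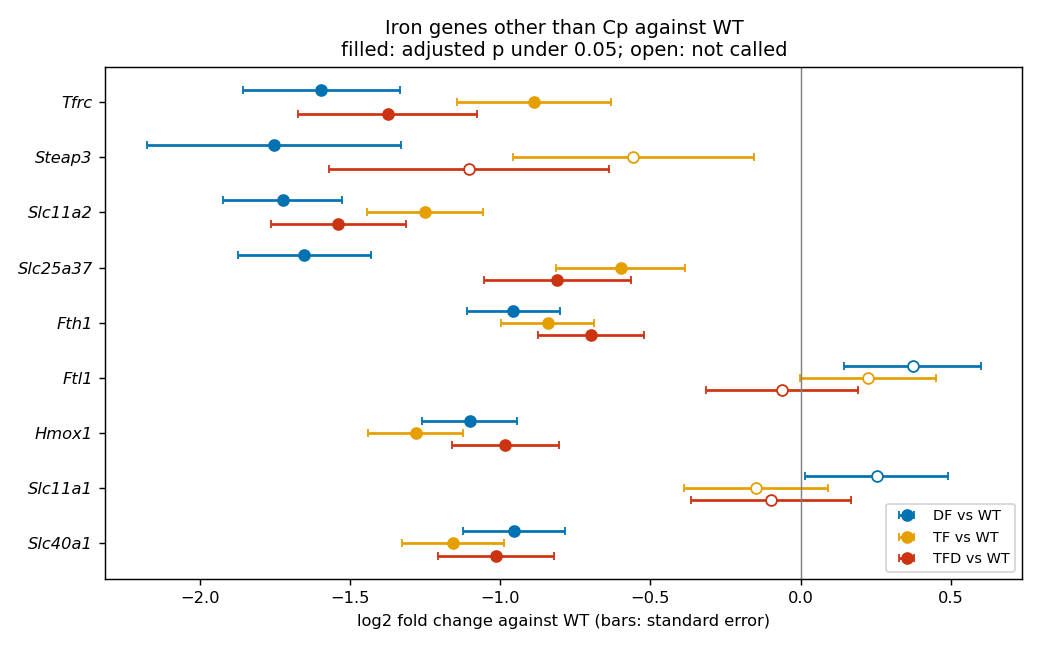
Log2 fold change against WT (x axis, bars for the standard error) of the 9 members other than Cp (y axis) in DF, TF and TFD, with filled points for an adjusted p under 0.05 and open points for genes not called. Tfrc, Slc11a2, Slc25a37, Fth1, Hmox1 and Slc40a1 are filled and left of 0 in each genotype, Steap3 is filled in DF alone, and Ftl1 and Slc11a1 lie near 0.

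Per length of transcript, the order of the genes in WT was Ftl1 (663 ± 68 CPM per kb, SD, n = 3), Fth1 (539 ± 54), Tfrc (167 ± 28), Slc40a1 (69.3 ± 6.6), Slc25a37 (32.7 ± 1.9), Hmox1 (24.8 ± 2.9), Slc11a1 (14.3 ± 3.9), Steap3 (13 ± 2.1), Slc11a2 (8.63 ± 0.43) and Cp (0.35 ± 0.07). The means of Slc11a1 and Steap3 differed by less than their summed SDs, and the other neighbours by more. In DF the order ran Ftl1 (859 ± 55), Fth1 (278 ± 44), Tfrc (55.1 ± 14.5) and Slc40a1 (35.8 ± 8.3), with Slc11a1 (17.1 ± 4.6) above Hmox1 (11.6 ± 0.8) and Slc25a37 (10.4 ± 0.6), followed by Cp (5.11 ± 0.47), Steap3 (3.84 ± 1.04) and Slc11a2 (2.61 ± 0.19). In DF the means of Tfrc and Slc40a1, of Hmox1 and Slc25a37, and of Cp and Steap3 each differed by less than their summed SDs. The ferritin chains had the highest mean level per length of the 10 in every genotype.

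The mutants were then compared with one another. DF and TF differed at 2 of the 10 genes, both lower in DF, against 5.94% of all genes called in this comparison. Slc25a37 was 2.08-fold lower in DF than in TF (log2 −1.05 ± 0.22, adjusted p = 0.0167). The call was lost when any single DF library was left out, with adjusted p up to 0.0788. Cp was 1.60-fold lower in DF than in TF (−0.68 ± 0.18, adjusted p = 0.0493). For these 2 genes all DF libraries lay below all TF libraries, as for 12.1% of all genes. This call stood just inside the threshold and was lost in 10 of the alternatives, with adjusted p up to 0.187. Steap3 (−1.20 ± 0.42, adjusted p = 0.127), Tfrc (−0.71 ± 0.26, adjusted p = 0.139) and Slc11a2 (−0.47 ± 0.20, adjusted p = 0.213) also had lower values in DF without passing.

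TFD differed from DF at 0 of the 10 genes with edgeR, where 0.0% of all genes were called. At an unadjusted p under 0.05 there were 2, Cp (log2 1.05 ± 0.20 higher in TFD, adjusted p = 0.0993) and Slc25a37 (0.84 ± 0.24, adjusted p = 0.166), and DESeq2 called both, against 14.2% of all genes at that p and 2.12% called by DESeq2. Without the 3 libraries of high Xist, edgeR called Slc25a37 higher in TFD than in DF (1.03, adjusted p = 0.00351). For Cp, Slc25a37 and Steap3, 3 of the 10, each TFD library lay above each DF library, as for 14.1% of all genes. TFD differed from TF at 0 of the 10 with edgeR, at 0 with an unadjusted p under 0.05 and at 0 with DESeq2, against 0.0164%, 8.77% and 1.1% of all genes. The largest Cp value of all libraries, 84.5 CPM, and the lowest Ftl1 value, 367 CPM, were both in TFD replicate 2.

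The 4 uptake genes were read beside markers of erythroid cells, the main users of iron in marrow, although markers of other cells moved with these genes as well. Of 12 erythroid markers listed, 10 were in the table, among them the erythropoietin receptor gene Epor and the factor genes Klf1 and Gata1. Their summed level ranged from 841 to 1040 CPM in WT, from 58.2 to 93.4 CPM in DF, from 247 to 910 CPM in TF and from 221 to 363 CPM in TFD. All 10 were called lower in DF, 7 in TF and 8 in TFD, and all 10 were called lower in DF than in TF. TF replicate 3, the library with 910 CPM, was also the TF library with the highest Tfrc, Steap3, Slc11a2 and Slc25a37. Over the 11 libraries the correlation with the mean log2 level of these markers was 0.99 for Slc25a37, 0.89 for Tfrc, 0.88 for Steap3 and 0.87 for Slc11a2, and after removing genotype means it was 0.94, 0.72, 0.71 and 0.88. Other lists were as close for some of the genes. Steap3 had 0.92 with iron-recycling macrophage markers (0.89 within genotypes), Slc11a2 had 0.97 with B cell markers (0.76 within genotypes) and −0.94 with monocyte markers (−0.51), and Tfrc had 0.91 with B cell markers (0.61). Slc25a37 was closest to erythroid markers on both scales. The mean log2 level of erythroid markers was 5.84 in TF replicate 3, against 3.77 and 4.34 in the other TF libraries. The values within genotypes therefore lean on that library. The points share a library, its depth and its cell mixture, and the part of any of these cells in the uptake gene results was not tested.

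The uptake genes did not fall as far as the erythroid markers in DF. Tfrc lay 3.71 ± 0.22 log2 units above the mean of the markers in WT and 5.93 ± 0.53 above it in DF (SD, n = 3), a difference of levels within each library. In TF it lay 4.06 ± 0.53 above (n = 3) and in TFD 4.31 ± 0.39 above (n = 2). Slc25a37 lay 1.13 ± 0.30 above the marker mean in WT and 3.31 ± 0.26 in DF. Steap3 was at −0.60 ± 0.25 against that mean in WT and 1.45 ± 0.75 in DF. Slc11a2 was at −0.35 ± 0.19 in WT, 1.75 ± 0.43 in DF and −0.35 ± 0.58 in TF, with no shift in TF. The DF and WT libraries did not overlap for any of the 4 genes on this scale, and these differences were not tested.

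**Figure D4:**
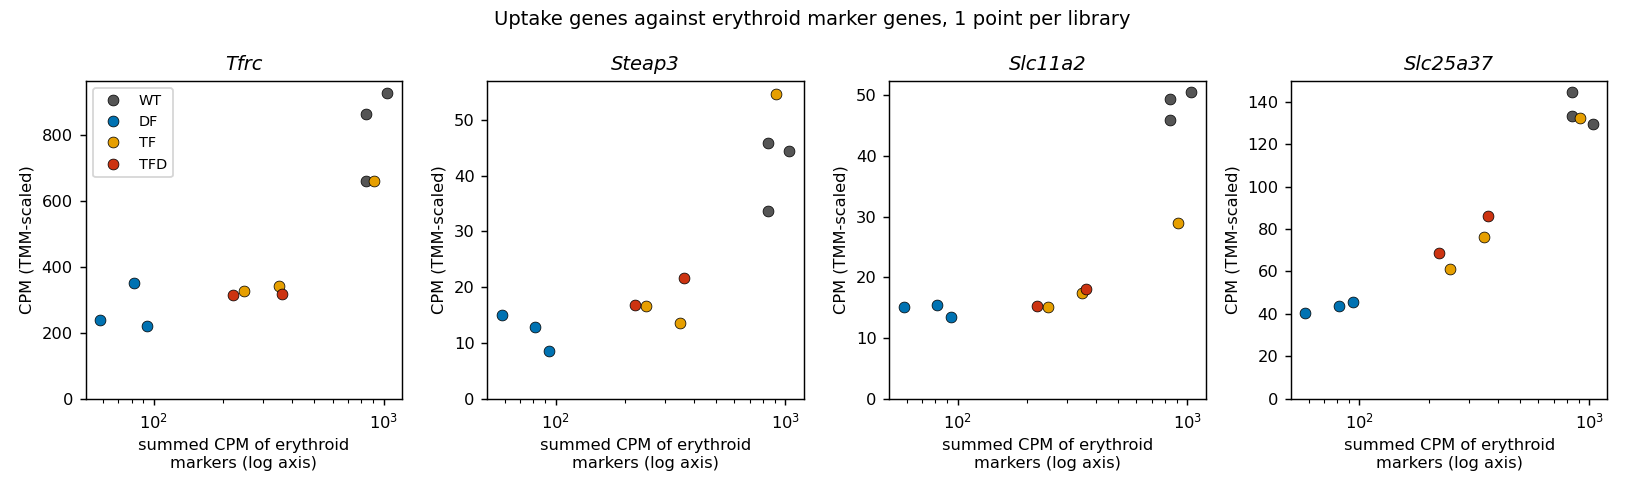
Level of the 4 uptake genes in CPM (y axis, from 0) against the summed CPM of 10 erythroid markers (x axis, log scale), with 1 point per library coloured by genotype. DF libraries sit at 58.2 to 93.4 CPM of markers and WT libraries at 841 to 1040 CPM, and the TF library at 910 CPM lies beside WT for Tfrc, Steap3 and Slc25a37 but below it for Slc11a2.

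Markers of other cells were called against WT as well, in some lists about as often as all genes. Over all genes, 21.0%, 19.0% and 14.7% were called higher in DF, TF and TFD, and 16.6%, 15.6% and 11.6% lower. Of 12 genes of iron-recycling macrophages, 10 were lower and 1 higher in DF, 3 lower and 2 higher in TF, and 5 lower and 2 higher in TFD. Their summed level ranged from 301 to 450 CPM in WT, 283 to 312 CPM in DF, 382 to 628 CPM in TF and 390 to 565 CPM in TFD. Within the list Spic, the factor of red pulp macrophages, had a mean of 3.97 CPM in WT and 0.83 CPM in DF, whereas the general macrophage gene Adgre1 rose from 57.5 to 109.8 CPM. Hmox1 and Slc40a1, the recycling and export genes of these macrophages, had correlations of 0.52 and 0.45 with this list over the 11 libraries and of 0.24 and −0.05 within genotypes. With neutrophil markers the values within genotypes were 0.57 for Hmox1 and 0.83 for Slc40a1, and with monocyte markers they were −0.02 and −0.31, against −0.94 and −0.92 over the 11 libraries. All 9 monocyte markers were higher in DF and TF and 8 in TFD, with summed levels from 2250 to 2560 CPM in WT and from 6510 to 9180 CPM in the mutants. The correlation of Cp over the 11 libraries was 0.97 with monocyte markers and −0.57 with neutrophil markers, and within genotypes it was 0.15 and −0.79. Neutrophil markers ranged from 51600 to 64600 CPM in WT, 58400 to 82300 CPM in DF, 36800 to 47000 CPM in TF and 23100 to 46300 CPM in TFD, with 5 of 10 called lower in TF, 2 in TFD and 0 in DF. All 7 B cell markers in the table were lower in each mutant genotype. Of 5 T cell markers, 3 were lower in DF, 0 in TF and 2 in TFD. Of 5 early granulocyte markers, 5 were higher in DF, 1 in TF and 2 in TFD, with summed levels from 2980 to 3140 CPM in WT, 4680 to 6490 CPM in DF, 2750 to 4490 CPM in TF and 3940 to 5730 CPM in TFD. Fth1 had a correlation of −0.76 with the early granulocyte list over the 11 libraries and −0.88 within genotypes, and Ftl1 had 0.55 and 0.71 with the neutrophil list. Over the 11 libraries Fth1 was closer to the monocyte (−0.93), B cell (0.87) and erythroid (0.78) lists, with −0.59, 0.25 and 0.46 within genotypes. The mean log2 level of neutrophil markers was 11.06 and 10.16 in the TFD libraries, so values within genotypes for that list lean partly on this pair. The part of these cells in the iron gene results was not tested.

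A wider list of 80 genes of iron handling was read beside the members, of which 60 were tested. In DF 12 were called higher and 18 lower, in TF 10 higher and 16 lower, and in TFD 9 higher and 15 lower. The higher counts include Smad6 in each genotype and Neo1 in TF and TFD, which passed the low-count filter through the mutant libraries. The shares called in either direction over all genes were 37.6%, 34.6% and 26.3%. The list's median log2 fold changes were 0.05, 0.01 and −0.09. Of the 60, 9 were lower in every mutant genotype, against 7.9% of all genes, namely Tfr2, Slc39a8, Picalm, Blvrb, Fbxl5, Bmpr1a, Abcb10, Isca1 and Tmem14c.

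Among 12 other genes of uptake and reduction, Trf, the gene of transferrin itself, rose in each mutant genotype. It was at 134, 86.5 and 90.3 CPM in WT and between 176 and 242 CPM in the mutants (log2 0.97 ± 0.17, 1.03 ± 0.17 and 1.14 ± 0.19 in DF, TF and TFD, adjusted p = 0.000833, 0.000729 and 0.000821 with edgeR). Ligand and receptor mRNA thus went in opposite directions. Tfr2, a transferrin receptor of erythroid cells and liver, was at 34.8, 26.6 and 37.3 CPM in WT and between 4.28 and 15.7 CPM in the mutants (−2.40 ± 0.36, −1.78 ± 0.34 and −2.04 ± 0.40). Slc39a8, a metal importer, also fell (−1.79 ± 0.19, −1.09 ± 0.18 and −1.63 ± 0.21). Steap4, a metalloreductase, fell in TF (−2.59 ± 0.49) and TFD (−1.73 ± 0.52) and was not called in DF. The neutrophil iron-binding genes Ltf and Lcn2 were not called in DF, and Lcn2 was lower in TF (−0.66 ± 0.21, adjusted p = 0.0249) and TFD (−0.73 ± 0.23, adjusted p = 0.0356).

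Of 8 genes of heme and hemoglobin handling, Blvrb, a biliverdin reductase of red cells, fell furthest, from 97.3, 101 and 132 CPM in WT to between 11.5 and 13.5 CPM in DF. Its log2 fold change was −3.16 ± 0.35 in DF, −1.18 ± 0.32 in TF and −2.26 ± 0.38 in TFD. Cd163, the hemoglobin scavenger receptor of macrophages, fell in DF (−2.27 ± 0.44). It was not called in TF (−0.03 ± 0.39) or TFD (−0.79 ± 0.46), and DF was lower than TF (−2.24 ± 0.44, adjusted p = 0.0133), whereas TFD and DF were not called apart (1.48 ± 0.49, adjusted p = 0.217). Lrp1, which takes up heme bound to hemopexin, rose in each genotype (1.87 ± 0.17, 1.48 ± 0.17 and 1.93 ± 0.18). Hp, which encodes the hemoglobin binder haptoglobin, rose in DF (0.49 ± 0.13, adjusted p = 0.011) and was higher in DF than in TF (0.81 ± 0.13, adjusted p = 0.00498).

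The regulators that bind the hairpins shown above, Aco1 and Ireb2, were not called in any genotype. Fbxl5, the iron-sensing adaptor that marks Ireb2 for degradation, fell in each (−0.64 ± 0.11 in DF, −1.18 ± 0.12 in TF and −1.02 ± 0.13 in TFD), and was higher in DF than in TF (0.54 ± 0.11, adjusted p = 0.0183). Ncoa4, the receptor that delivers ferritin for breakdown, was lower in TF (−0.40 ± 0.13, adjusted p = 0.034) and was not called in DF or TFD. Pcbp1, an iron chaperone of ferritin, was lower in DF (−0.40 ± 0.15) and TF (−0.46 ± 0.15). App, listed with the export genes for its reported binding to ferroportin, rose in DF (0.82 ± 0.14) and TFD (0.45 ± 0.15) and was not called in TF. Its TFD and WT libraries overlapped, and the TFD call was lost in 13 of 19 alternatives, with edgeR adjusted p up to 0.301.

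Of 16 genes of iron sensing and of the pathway by which the liver sets hepcidin, 3 rose and 3 fell in DF, 4 rose and 4 fell in TF, and 4 rose and 3 fell in TFD. Over all genes 21.0%, 19.0% and 14.7% rose and 16.6%, 15.6% and 11.6% fell. Acvr1 and Hfe rose in each genotype. The counts of rises also include Smad6 in each genotype and Neo1 in TF and TFD. Both passed the low-count filter through the mutant libraries where they are high, so their values against WT are descriptions. The BMP receptor gene Bmpr1a, named after its values were seen, fell in each (−0.70 ± 0.18, −0.98 ± 0.18 and −0.98 ± 0.21). Smad6, an inhibitor of BMP signalling, rested on 5, 6 and 3 counts in WT, or 0.27 to 0.74 CPM. Its log2 differences from WT were 2.22 ± 0.44, 1.84 ± 0.45 and 2.01 ± 0.48, given as a description. Acvr1, a BMP receptor gene, changed by 1.18 ± 0.23, 1.64 ± 0.23 and 1.80 ± 0.25, and Hfe by 0.71 ± 0.16, 0.90 ± 0.16 and 0.83 ± 0.17. Neo1, which encodes a coreceptor partner in this pathway, rested on 3, 4 and 10 counts in WT, or 0.25 to 0.90 CPM. Its log2 differences from WT were 2.0 ± 0.53 in TF and 1.72 ± 0.57 in TFD, also given as a description. Of 19 genes of mitochondrial iron and iron-sulfur clusters, 8 fell and 4 rose in DF, 4 fell and 3 rose in TF, and 5 fell and 2 rose in TFD, beside the same shares of all genes. Abcb10, which stabilizes mitoferrin, fell in each (−1.24 ± 0.22, −0.87 ± 0.22 and −0.95 ± 0.25), as did the assembly factor Isca1 (−1.15 ± 0.19, −0.89 ± 0.18 and −0.98 ± 0.21), whereas the cochaperone Hscb rose (0.95 ± 0.23, 1.25 ± 0.23 and 0.83 ± 0.26).

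DF and TF differed at 9 of these 60 genes, against 5.94% of all genes, with App, Hp, Lcn2 and Fbxl5 higher in DF and Abcg2, Blvrb, Cd163, Fam132b and Slc39a8 lower in DF. Fam132b, the symbol in the table for the erythroid hormone erythroferrone, was called in DF against WT (−1.39 ± 0.35) and in DF against TF (−1.96 ± 0.34), and is named here after its values were seen, as is Abcg2 (−0.81 ± 0.19 in DF against TF). TFD differed from DF and from TF at 0 of the 60 with edgeR, with 11 and 5 at an unadjusted p under 0.05, beside 14.2% and 8.77% of all genes, and DESeq2 called 4 and 0, beside 2.12% and 1.1%. Of the called values given above for single genes of the wider list, several were lost when 1 library was left out or under another setting. Among them were Steap4, App, Neo1, Hscb, Lcn2, Smad6 and Abcb10 in TFD, Pcbp1, Ncoa4 and Lcn2 in TF, Pcbp1 and Hp in DF, and, in DF against TF, Slc39a8, Cd163, App, Fbxl5, Lcn2 and Abcg2, with adjusted p up to 0.389. The calls of App and Lcn2 in TFD, and of App and Slc39a8 in DF against TF, were among those lost without the 3 libraries of high Xist.

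**Figure D5:**
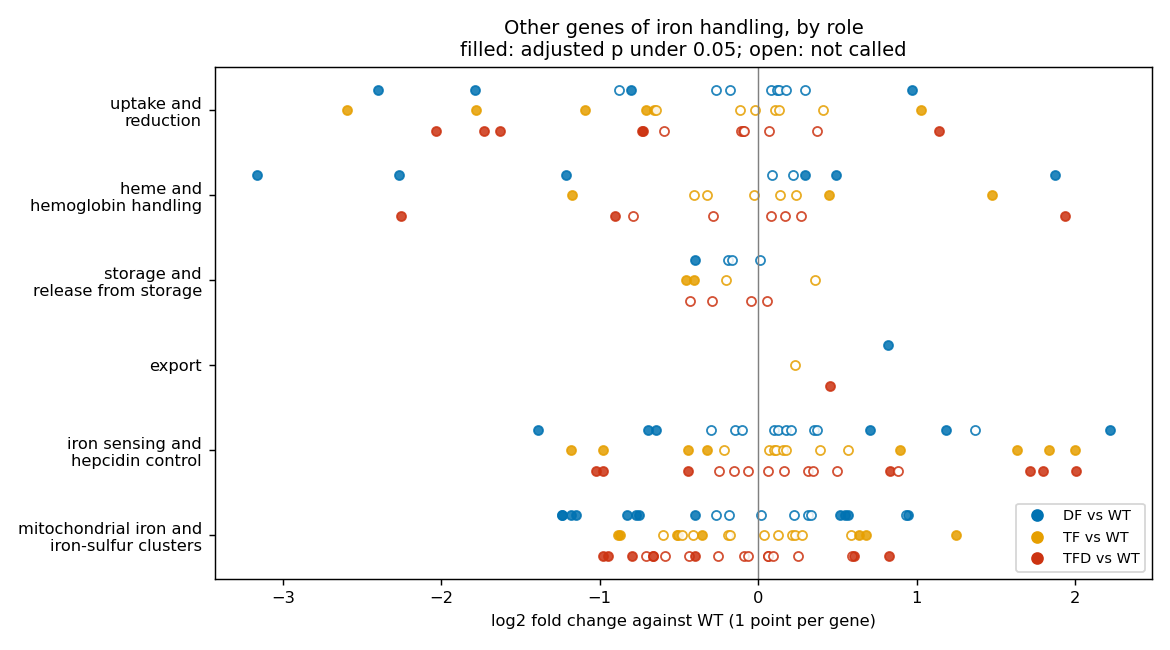
Log2 fold change against WT (x axis) of the 60 other genes of iron handling, 1 point per gene, by role (y axis) and genotype, with filled points for an adjusted p under 0.05 and open points for genes not called. Changes run both ways in most roles, from Blvrb at −3.16 in DF to Smad6 at 2.22 in DF. Smad6 and Neo1 passed the low-count filter through the mutant libraries.

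Genes whose log2 CPM over the 11 libraries was most like that of a member were listed for Cp, Tfrc, Slc40a1 and Hmox1, among 11182 genes. Nearest to Cp were Apba1 (r = 0.997), Coro2a (0.994), Itgb7 (0.994), Tmem55b (0.993) and Socs2 (0.993), and after removing genotype means these correlations were between 0.76 and 0.92. Nearest to Tfrc were Hebp1, a heme-binding protein gene (0.984), Btrc (0.974), 4930430F08Rik (0.972), Ubac1 (0.971) and Armc9 (0.969). Nearest to Slc40a1 were Plekha2 (0.977), Il1f9 (0.976), D930015E06Rik (0.973), Nudt4 (0.967) and Tmem62 (0.966), and nearest to Hmox1 were Tubgcp6 (0.969), Dnajb1 (0.965), Smarca4 (0.962), Kcnk5 (0.96) and Lpar2 (0.959). The lists of the 4 genes had no gene in common. These correlations are descriptions over libraries that share the genotype differences.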

How the data were processed

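Total RNA from bone marrow cells was depleted of globin mRNA and made into stranded TruSeq libraries. Per the submitters' notes and the methods, the authors used STAR on mm10 and featureCounts on the unique alignments, and dropped genes that did not exceed 0.5 CPM in more than 3 samples. Tool versions and the strand setting are not given in the sources used here. The authors deposited raw read counts for 12199 genes, which were the input here. The deposited log2 CPM values match those of edgeR (prior count 0.25) to within 5e-09 and served as a check. A further deposited column of another kind, gene length in bases, gave CPM per kb.

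Samples were grouped by their labels, which name separate samples, and the study describes mice as the unit. If they were not separate animals, the p-values measure the spread between libraries. The same filter over the 11 libraries left 12175 genes and removed 24, and the genes left were tested in R 4.3.3 with edgeR 4.0.16, with TMM factors, 1 mean per genotype and the quasi-likelihood F test with Benjamini-Hochberg adjustment. Levels are CPM with TMM factors, from totals of 8274153 to 15900904 counts, and for most genes the number of libraries limits the precision more than counting does. Counting adds to the spread where WT counts are few, as for Cp, Smad6 and Neo1. No pair of replicates agreed within sampling noise. Tables and figures were made in Python 3.11.15 with pandas 2.3.3 and matplotlib 3.10.9.

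The procedure was tested on simulated counts with 200 changed genes of 12175. In DF against WT it recovered 92 of 108 genes changed 2-fold and 92 of 92 changed 4-fold, with 3 false calls, and in TFD against DF 88 of 108 and 91 of 92, with 6 false calls.

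The members and lists were chosen with earlier results of these data known. The text names the members, the iron regulators on a list of 10, per role up to 3 called genes of the wider list with the largest mean change, the 5 genes most like 4 members, and leading marker genes. Alternatives were DESeq2 1.42.0, RLE factors, library totals, no filter, only the groups compared, the replicate number as a block, an Xist term (10000 counts or more), each library left out, and, chosen after seeing the data, the libraries below that Xist level alone.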

Additional observations from a re-analysis of the deposited data

Results flagged for a closer look

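Slc25a37, which encodes the mitochondrial iron importer, had an effect in DF that differed from its effect in TF. The difference between the 2 genotypes was −1.05 on the log2 scale (SE 0.22, edgeR's quasi-likelihood adjusted p = 0.0167), with all 3 DF libraries below all 3 TF libraries. Over the alternatives it ranged from −1.27 to −0.67, with adjusted p from 5.84e-05 to 0.0788.

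Cp differed between DF and TF by −0.68 on the log2 scale (SE 0.18, edgeR's quasi-likelihood adjusted p = 0.0493), again with all DF libraries below all TF libraries. Over the alternatives it ranged from −0.77 to −0.56, with adjusted p from 0.0102 to 0.187.

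Of the wider list of 60 tested genes, 9 also differed between DF and TF by edgeR's quasi-likelihood test, against 5.94% of all genes, on the log2 scale by −0.70 for Slc39a8, 0.84 for Lcn2, −2.24 for Cd163, 0.81 for Hp, −1.99 for Blvrb, −0.81 for Abcg2, 0.59 for App, 0.54 for Fbxl5 and −1.96 for Fam132b. Without DF replicate 1, 2 or 3 the count was 5, 3 or 4.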

How the results depend on the processing

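Over the alternatives, 7 to 8 of 9 members were called against WT in DF, 4 to 7 in TF and 5 to 7 in TFD, and no member called with all libraries changed sign. Counts between mutants were less stable. For DF against TF (2 members called) the replicate block gave 1, the Xist term gave 1 and leaving out a library gave 0 to 3. For TFD against DF (0 called) DESeq2 gave 2, only the groups compared gave 2, the libraries below the Xist limit gave 1 and leaving out a library gave 0 to 2, and for TFD against TF (0 called) leaving out a library gave 0 to 1. In the wider list, leaving out a library gave 15 to 27 for TFD against WT (24 called, 15 without TFD replicate 2) and 3 to 9 for DF against TF (9 called). TFD against DF (0 called) gave 4 with DESeq2, 1 with only the groups compared, 2 below the Xist limit and 0 to 3 with a library left out. The cause of these shifts was not tested.

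The sign reversed for 4 of 98 values, none of them called with all libraries, although Ftl1 in TFD was called lower without TFD replicate 1. With a library left out, Ftl1 in TFD against WT ran from −0.81 to 0.43, Slc11a1 in DF from −0.002 to 0.47, in TF from −0.28 to 0.10 (0.099) and in TFD from −0.58 to 0.25. Below the Xist limit, Ftl1 in TFD was 0.43 and Slc11a1 in TFD was 0.12.

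Same-numbered libraries deviated with correlations between −0.299 and 0.247, which gave no sign of a pairing by number. With so few libraries per genotype these values cannot exclude a shared batch. The replicate block left 7, 6 and 6 members called against WT in DF, TF and TFD. With 2 TFD libraries, the simulated TFD against DF comparison recovered 88 of 108 genes changed 2-fold. It left out gene-specific spread, so it does not give the power in these data, and smaller changes were not simulated.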
